A study of Oryza sativa Japonica Group with 8 samples.

Results

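The WUSCHEL-related homeobox (WOX) genes and FLORAL ORGAN NUMBER1 (FON1) were followed in rice pistils. The set held 9 loci of the 38726 features counted, found by their RAP locus identifiers: TAB1/OsWUS, WOX4, WOX11, WOX12, 2 copies of WOX3A, WOX3B, QHB and FON1. All 9 were rows of the count table. The locus names come from the list that defined the set, because the files give identifiers without names. Of the 9 names, 4 (WOX4, WOX11, QHB and FON1) also stood in the RefSeq table of another rice assembly, each on the chromosome that its identifier gives.

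Polyadenylated RNA had been sequenced from pistils of wild-type rice (Oryza sativa ssp. japonica, cultivar Nipponbare), the female organs of the flower, taken at heading without any treatment. The 8 libraries comprised 3 of whole-cell RNA from the upper part of the pistil, 3 of whole-cell RNA from its lower part and 2 of RNA from nuclei that had been sorted out of pistils. The labels do not say where the pistil was divided, whether plants were pooled, or whether a replicate stands for a plant, so the p-values refer to the spread between libraries, which may be technical. Whole-cell libraries were made with a directional kit and nuclei libraries with a SMART-Seq kit, so a difference of compartment and one of kit cannot be told apart.

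WOX proteins are plant-specific homeodomain transcription factors. In Arabidopsis, WUSCHEL keeps stem cells of the shoot and flower meristems active, and the receptor kinase CLAVATA1 takes part in the signalling that limits it. FON1 is the rice counterpart of CLAVATA1, and its loss enlarges the floral meristem and adds floral organs, pistils among them. Other WOX genes act in lateral organs, vascular tissue, hairs and roots.

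Total counts ran from 24796307 to 35518142 in the whole-cell libraries and were 10857036 and 9268151 in nuclei. Levels are given as CPM, that is, counts scaled to a common library size, here with TMM factors over all 8 libraries. A count of 3 corresponded to 0.0760 to 0.136 CPM in a whole-cell library, and to 0.269 and 0.371 CPM in nuclei replicates 1 and 2. A list of 5 carpel and ovule marker loci, named by no table used here, had at least 39.7 CPM in every library. Lower replicate 3 stood apart: by mean Spearman correlation across features it was nearer to the upper group (0.954) than to its own (0.935). Upper and lower libraries with the same replicate number deviated together and were treated as pairs. The main fits had no term for replicate number and ignored this pairing. Blocked values, from a fit with that term, stand where they change a call.

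FON1 had counts in all 8 libraries and WOX3B in 6, and they lay on opposite sides of the division between the parts. FON1 was higher in all 3 lower libraries than in any upper library, WOX3B higher in all 3 upper libraries than in any lower library. Groups apart in this way were common, at 10.6% of all genes tested for the direction of FON1 and 9.93% for that of WOX3B. The other 7 loci had at most 15 counts in any library, and WOX12 had none at all. They were too sparse for a test between the parts: the filter on low counts kept 2 of the 9 loci for upper against lower, and 3 (with WOX4) for nuclei against the parts. Between the parts WOX3B passed this filter only through its 3 upper libraries. A gene kept in that way lies higher in every upper library, so the separation of WOX3B is no support for a difference.

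**Figure D1:**
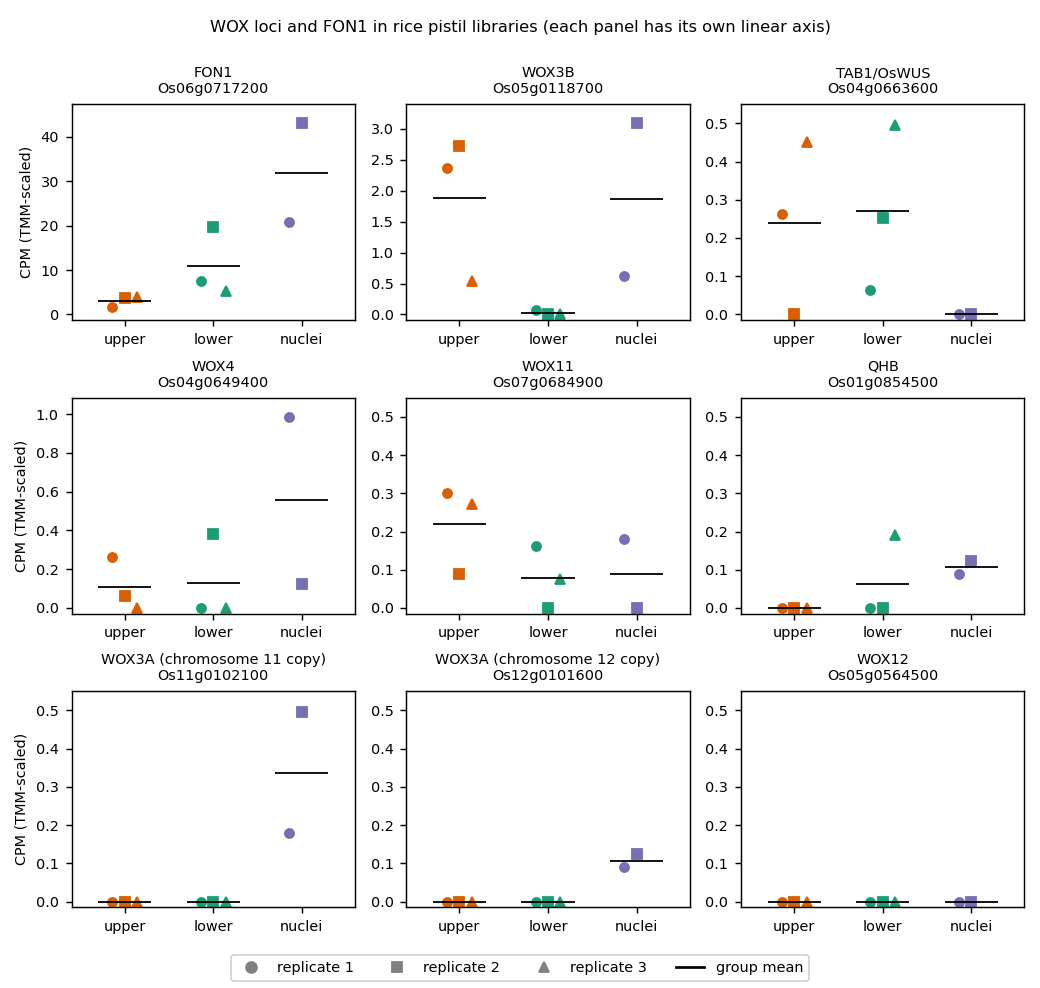
CPM (TMM-scaled, linear axis in each panel) of the 9 loci in upper, lower and nuclei libraries; the symbol gives the replicate and the line the group mean. The FON1 group mean is lowest for upper and highest for nuclei libraries, WOX3B is near 0 in the lower part, and the other loci stay below 1 CPM in every library.

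FON1 (Os06g0717200, chromosome 6), the receptor kinase of the set, was detected in all 8 libraries. It had 1.62, 3.65 and 4.02 CPM in upper replicates 1, 2 and 3, from 43, 122 and 89 counts. In lower replicates 1, 2 and 3 it had 7.42, 19.7 and 5.37 CPM, from 228, 777 and 141 counts. The parts did not overlap, but upper replicate 3 and lower replicate 3 came close to each other, and lower replicate 2 was far above the rest. The mean FON1 level was 3.10 ± 1.30 CPM for upper and 10.8 ± 7.73 CPM for lower libraries (SD, n = 3 each).

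Within pairs of equal replicate number, FON1 was 4.59-, 5.38- and 1.33-fold higher in the lower part. The log2 fold change of upper over lower was -1.78 (SE 0.61), which did not pass the test (edgeR quasi-likelihood test, Benjamini-Hochberg adjusted p = 0.275 over 29848 genes). Of all genes tested, 1.81% had a lower value. The size rested on lower replicate 2: without it the log2 fold change was -1.07 (edgeR adjusted p = 0.482). With the replicate block FON1 was not called either (edgeR adjusted p = 0.0731), except in the blocked fit that left out pair 3, where its log2 difference was -2.34 (SE 0.39, edgeR adjusted p = 0.0142). In whole-tissue RNA such as this, fewer cells of a type and less RNA per cell cannot be told apart.

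WOX3B (Os05g0118700, chromosome 5), a WOX gene required for the hairs of rice leaves and glumes, showed the opposite distribution. It had 2.37, 2.73 and 0.542 CPM in upper replicates 1, 2 and 3, from 63, 91 and 12 counts. In lower replicate 1 it had 0.0651 CPM, from 2 counts, and in lower replicates 2 and 3 it had no count. Every upper library was above every lower library, although upper replicate 3 was well below the rest of its group. The mean WOX3B level was 1.88 ± 1.17 CPM for upper and 0.0217 ± 0.0376 CPM for lower libraries (SD, n = 3 each).

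By pooled counts over total counts, WOX3B was 79.6-fold higher in the upper part (166 against 2 counts, 95% counting interval from 21.7 to 662). The ratio was 46.4 without lower replicate 2, and without lower replicate 1 WOX3B was higher by at least 37.6-fold, taking 3 counts over the lower group as the floor. The fitted log2 fold change of 6.25 (SE 1.23) did not pass the test (edgeR adjusted p = 0.0805). Of all genes tested, 0.208% had a higher value. That rank is no support, because the low-count filter kept WOX3B only through its upper libraries. With the replicate block WOX3B was called higher in the upper part, at a log2 difference of 6.39 (SE 1.00, edgeR adjusted p = 0.0250). That call was lost when pair 2 was left out of the blocked fit (edgeR adjusted p = 0.120), and DESeq2 called WOX3B without a block (adjusted p = 0.000135). Both calls came from fits with the same low-count filter, so its limit holds for them too. In the edgeR fit without that filter or a block, WOX3B was not called (log2 fold change 6.25, edgeR adjusted p = 0.0753).

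**Figure D2:**
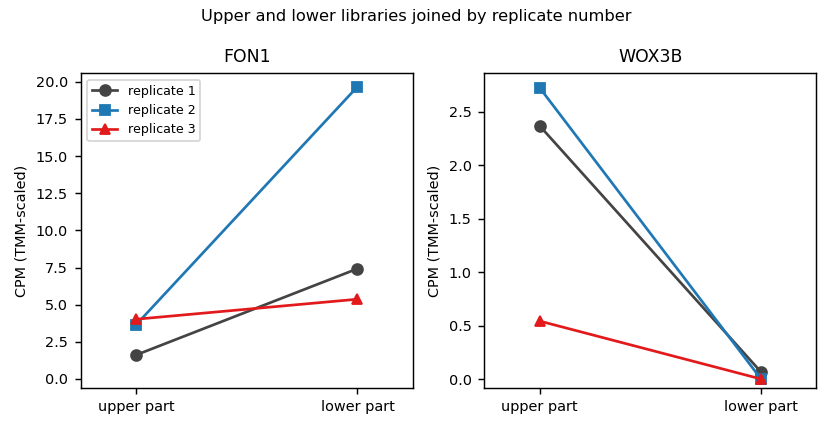
FON1 and WOX3B in upper and lower libraries, in TMM-scaled CPM on linear axes; each line joins the upper and the lower library of 1 replicate number. For FON1 all 3 lines go up, that of replicate 3 only from 4.02 to 5.37, and for WOX3B all 3 go down to 0.0651 or 0.

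Taking the 9 loci as a list, 0 of the 2 that could be tested were called between the parts by edgeR. DESeq2 called 1 of them, WOX3B (5.47% over all genes with that tool). Both loci had an unadjusted p under 0.05 in the edgeR test. The share of all genes under that threshold was not computed, so this count is not read as a result. Across all genes tested, 0.814% were called in this comparison, 0.811% as higher in the upper part and 0.00335% as lower. With the replicate block 1 of the 2 was called, where the share over all genes was 8.14%.

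**Figure D3:**
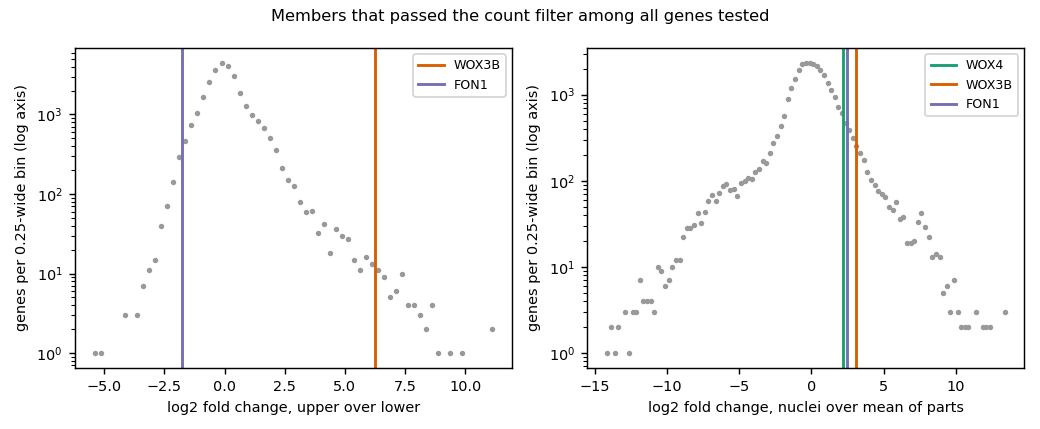
Number of genes per bin of log2 fold change (points, log axis) for upper over lower and for nuclei over the mean of the parts, with lines at the loci of the set that passed the filter. Between the parts, WOX3B at 6.25 lies far out on the upper side and FON1 at -1.78 on the lower side; in nuclei the values of WOX4, FON1 and WOX3B lie between 2.22 and 3.08.

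The counts of both genes were also set against each other within a library, a measure that needs no scaling and was chosen after the data were seen. WOX3B made up 59.4%, 42.7% and 11.9% of the summed FON1 and WOX3B counts in upper replicates 1, 2 and 3 (Clopper-Pearson 95% intervals from 49.5 to 68.9%, from 36.0 to 49.7% and from 6.29 to 19.8%). In lower replicates 1, 2 and 3 the share was 0.870%, 0% and 0%, with upper limits of 3.11%, 0.474% and 2.58%. In nuclei replicates 1 and 2 it was 2.93% and 6.70% (from 1.19 to 5.94% and from 4.38 to 9.74%). That the shares of the parts are apart follows from the levels of both genes given above and is no further evidence. Both nuclei libraries had shares between those of the upper and the lower libraries. The intervals cover counting error only.

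**Figure D4:**
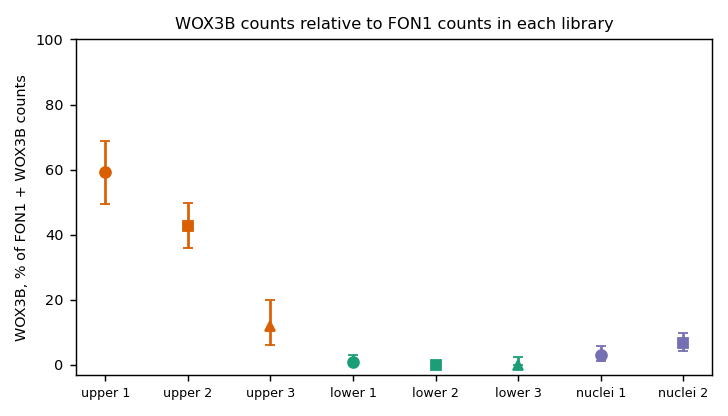
WOX3B as a percentage of the summed FON1 and WOX3B counts in each of the 8 libraries, with Clopper-Pearson 95% intervals as bars. The upper libraries lie between 11.9% and 59.4%, the lower libraries at or below 0.870% and the nuclei libraries at 2.93% and 6.70%.

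In nuclei, FON1 was higher than in any whole-cell library. It had 20.8 and 43.0 CPM in nuclei replicates 1 and 2, from 232 and 348 counts, while its whole-cell mean was 6.96 ± 6.52 CPM (SD, n = 6). Nuclei replicate 1 was just above lower replicate 2, the highest whole-cell library at 19.7 CPM, so the groups were separate by a narrow margin. The log2 fold change of nuclei over the mean of the parts was 2.49 (SE 0.52, edgeR adjusted p = 0.00975). It was 3.39 (SE 0.66, edgeR adjusted p = 0.0106) against the upper part alone and 1.59 (SE 0.63, edgeR adjusted p = 0.109) against the lower part alone, where it did not pass. The call was also lost without nuclei replicate 2, with a log2 fold change of 1.87 (edgeR adjusted p = 0.0848).

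WOX3B had 0.627 and 3.09 CPM in nuclei replicates 1 and 2, from 7 and 25 counts. These values overlap the range of the upper libraries and lie above all lower libraries. The log2 fold change over the mean of both parts was 3.08 (SE 0.98), which passed the test (edgeR adjusted p = 0.0464). With the replicate block it was 2.50 and did not pass (edgeR adjusted p = 0.0909). That block tied nuclei libraries to parts of equal replicate number, a pairing that was not checked. The mean of both parts averages log2 levels, of which the one in the lower part was near the floor. With the upper part alone as reference the value was -0.0052 on the log2 scale (SE 1.07, edgeR adjusted p = 0.998), and with the lower part alone it was 6.17 (SE 1.36, edgeR adjusted p = 0.0175). By pooled counts WOX3B was 1.65-fold higher in nuclei than in all whole-cell libraries together (95% counting interval from 1.09 to 2.42). That ratio rested on single libraries: leaving out nuclei replicate 2 gave 0.669, leaving out nuclei replicate 1 gave 2.80 and leaving out upper replicate 2 gave 2.88. The call against the mean of the parts was lost under most alternatives, including each fit that left out 1 library other than lower replicate 1, and its log2 fold change was 1.53 without nuclei replicate 2 (edgeR adjusted p = 0.407) and 4.14 without lower replicate 1.

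In this comparison 2 of the 3 loci of the set that could be tested were called, both higher in nuclei. With the replicate block, whose pairing of nuclei was not checked, 1 of the 3 was called, FON1. That block called 29.8% of all genes. Over all 31858 genes tested, 22.9% were called, 14.1% as higher in nuclei and 8.76% as lower. Both nuclei libraries were above all whole-cell libraries in 17.2% of the genes, FON1 among them.

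**Figure D5:**
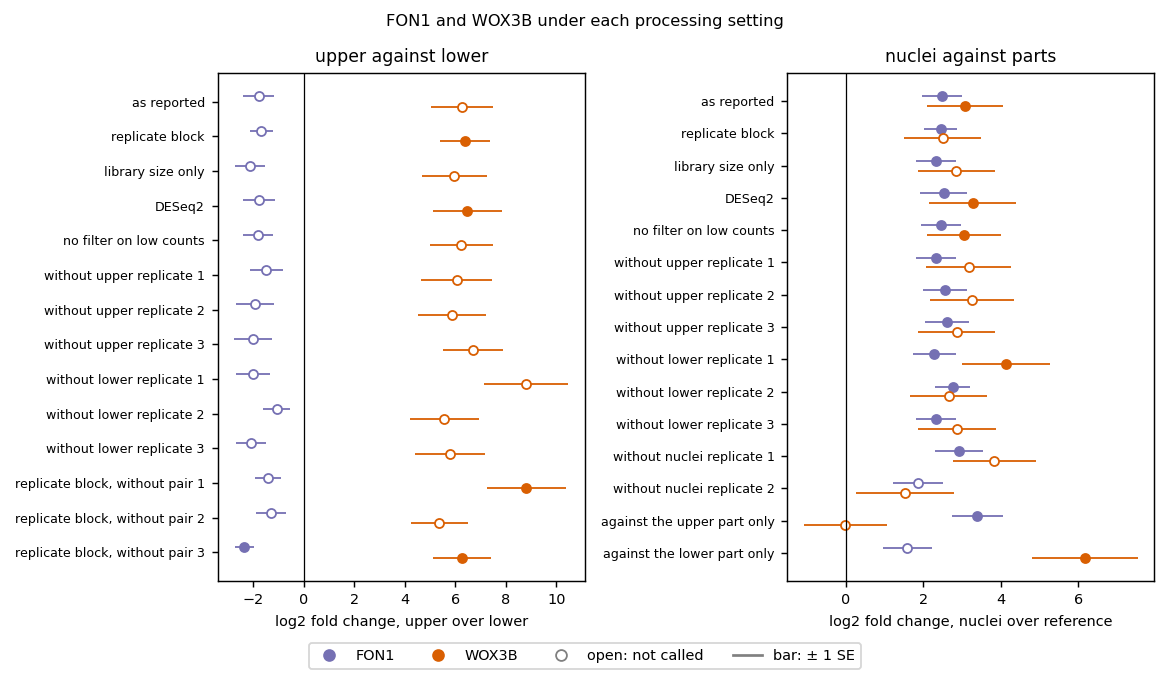
Log2 fold changes of FON1 and WOX3B with 1 SE under each processing setting, for upper over lower and for nuclei over the reference. The SE of edgeR fits was derived from the F statistic. Filled symbols passed the test and open symbols did not. FON1 stays below 0 between the parts and above 0 in nuclei, whereas WOX3B in nuclei is at 3.08 as reported and at -0.0052 when the upper part alone is the reference.

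WOX4 (Os04g0649400, chromosome 4), which acts in shoot meristem maintenance and leaf development in rice, was scattered over single libraries. It had 7, 2 and 0 counts in the upper libraries (0.263, 0.0599 and 0 CPM) and 0, 15 and 0 counts in the lower libraries (0.380 CPM in lower replicate 2). In nuclei it had 11 counts in replicate 1 and 1 count in replicate 2, which is 0.986 and 0.124 CPM. Lower replicate 2 and nuclei replicate 1 thus held most of the counts in their groups. The groups overlapped throughout, and WOX4 did not pass the test in nuclei (log2 fold change 2.22, SE 1.50, edgeR adjusted p = 0.298). Without nuclei replicate 1 its log2 fold change was 0.063.

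TAB1/OsWUS (Os04g0663600, chromosome 4), the WUSCHEL-type gene needed for tiller buds, had 7, 0 and 10 counts in upper replicates 1, 2 and 3, or 0.263, 0 and 0.452 CPM. In lower replicates 1, 2 and 3 it had 2, 10 and 13 counts, or 0.0651, 0.253 and 0.495 CPM. The parts overlapped fully, and the ratio of pooled counts, upper over lower, was 0.652 with a 95% counting interval from 0.330 to 1.26. It was 1.07 without upper replicate 2 and 0.385 without upper replicate 3, so no direction held. Neither nuclei library had a count, which allows up to 0.269 and 0.371 CPM in the single libraries. Against a floor of 3 counts over both nuclei libraries TAB1/OsWUS was at least 1.62-fold lower there than in the whole-cell libraries. That takes the 42 whole-cell counts as exact. With counting error included, the lower 95% limit of whole-cell over nuclei was 1.26. Without lower replicate 3 the 95% interval of nuclei over whole-cell ran from 0 to 1.01 and so included equal levels. The bound of 1.62 also needed both nuclei libraries together. With either left out, the limit lay above the whole-cell level, and TAB1/OsWUS was not distinguishable from it at this depth.

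WOX11 (Os07g0684900, chromosome 7), an activator of crown root growth, had 8, 3 and 6 counts in the upper libraries and 5, 0 and 2 in the lower libraries. The corresponding levels were 0.301, 0.0899 and 0.271 CPM and 0.163, 0 and 0.0762 CPM. The parts overlapped through upper replicate 2 and lower replicate 1, and the pooled ratio of 2.33, upper over lower, had a 95% counting interval from 0.917 to 6.64. That ratio uses total counts. With TMM-scaled sizes it and its limits would be higher, so the inclusion of equal levels may rest on the scaling. On total counts the ratio was 5.78 without lower replicate 1 and 1.36 without lower replicate 2. Nuclei replicate 1 had 2 counts and nuclei replicate 2 none. WOX12 (Os05g0564500, chromosome 5) had no count in any of the 8 libraries, as did 1690 features in all. That allows at most 0.0172 CPM over the whole-cell libraries and 0.149 CPM over the nuclei libraries, by total counts.

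QHB (Os01g0854500, chromosome 1), known from the quiescent centre of the rice root, had 5 counts in lower replicate 3, which is 0.190 CPM, and none in the other 5 whole-cell libraries. Each nuclei library had 1 count. Lower replicate 3 is the library that stood closer to the upper part than to its own group. The QHB counts were too few to separate any of the groups.

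The 2 WOX3A copies, Os11g0102100 on chromosome 11 and Os12g0101600 on chromosome 12, act in leaf widening and lateral organ growth and are near-identical, so the way reads were divided between them is uncertain. Neither had a count in the 6 whole-cell libraries. In nuclei replicates 1 and 2 the chromosome 11 copy had 2 and 4 counts, and the chromosome 12 copy had 1 count in each. Together they reached 0.269 and 0.618 CPM there, so both nuclei libraries were above all whole-cell libraries. With 3 counts over all whole-cell libraries as the floor, both copies together were at least 23.1-fold higher in nuclei, taking the 8 counts there as exact. With the counting error of the nuclei included, the lower 95% limit of the ratio was 14.8. That limit was 17.2 without nuclei replicate 1 (5 counts) and 6.63 without nuclei replicate 2 (3 counts).

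The chromosome 11 copy held 66.7% and 80.0% of the WOX3A counts in nuclei replicates 1 and 2, a mean of 73.3% ± 9.43 (SD, n = 2). At these counts the Clopper-Pearson 95% interval of the pooled 75.0% ran from 34.9 to 96.8%, so unequal shares were not detectable. Neither copy passed the filter on low counts. In the fit without that filter, which called 22.2% of all genes, the chromosome 11 copy was called higher in nuclei (edgeR adjusted p = 0.0349) and the chromosome 12 copy was not (edgeR adjusted p = 0.124). A count in both nuclei libraries and none in whole cells was found for 736 of the 38726 features.

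A further 7 loci had been listed as partners of these genes in meristem and organ development, without names in the tables used here. The filter kept 5 of them, and edgeR called 0 of the 5 in either comparison, with 1 at an unadjusted p under 0.05 in each. The share of all genes under that threshold was not computed. Such counts, here and for the carpel loci below, are therefore not read as results. DESeq2 also called 0 of the 5 in either comparison, and so did edgeR with the replicate block. In the blocked fit without pair 1, 1 of the 5 was called lower in the upper part. Its log2 difference was -2.25 (SE 0.39, edgeR adjusted p = 0.0161), and that fit called 11.7% of all genes. Without pair 2 or pair 3 the blocked fit called 0 of the 5. Over all genes tested, edgeR called 0.814% between the parts and 22.9% in nuclei, and DESeq2 5.47% and 30.3%. The median log2 fold change of the 5 partner loci was -0.84 for upper over lower and 0.53 for nuclei over the parts. Over all genes tested it was -0.02 and -0.03. In nuclei the 5 values ran from -0.48 to 1.91. The 5 values between the parts went both ways, from -1.43 to 1.11, and their median was -0.34 without lower replicate 1. Over all 7 loci without the filter it was -0.057. Of the 5 carpel and ovule loci edgeR called 0 in either comparison, with 2 at an unadjusted p under 0.05 in each, and DESeq2 called 1 higher in the upper part and 1 lower in nuclei, where it called 30.3% of all genes. With the replicate block likewise 1 of the 5 was called higher in the upper part and 1 lower in nuclei. That block called 8.14% of all genes between the parts and 29.8% in nuclei.

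Likeness to FON1 was measured by the Pearson correlation of log2(CPM + 1) over the 8 libraries, among 31857 other loci. Os02g0669000 on chromosome 2 came closest (r = 0.973, Spearman 0.952), with levels of 6.28, 10.6 and 6.33 CPM in upper, of 12.1, 32.6 and 10.9 CPM in lower and of 32.4 and 51.0 CPM in nuclei libraries. Os01g0884450 on chromosome 1 was next (r = 0.972, Spearman 0.976), with at most 2.13 CPM in the upper, 4.20 in the lower and 5.57 in the nuclei libraries. Both followed FON1 in having lower replicate 2 as the highest whole-cell library. These values describe a choice of the highest among many loci over 8 libraries in 3 groups, and 265 loci had an r above 0.9.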

How the data were processed

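PolyA RNA of 8 rice pistil libraries was measured. The authors deposited raw counts per feature, with no normalization; the submitters' processing notes name STAR, featureCounts, DESeq2 and the build IRGSP-1.0. The strand setting of the counting and its treatment of reads with several matches are not given in the sources used here. Each of the 8 columns carried the name of 1 sample, and 0 columns remained unused. Single-nucleus libraries were not analysed, and no genome sequence was used.

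The whole table was fitted with edgeR 4.0.16 in R 4.3.3 (quasi-likelihood test, TMM scaling, edgeR's low-count filter with a minimum of 10). The contrast between the parts was fitted to the 6 whole-cell libraries. The nuclei contrast, against the log2-scale average of both parts, was fitted to all 8. Neither main fit had a term for replicate number, which the blocked fits added. P-values were adjusted after Benjamini and Hochberg over every gene that passed the filter; a gene was called if its adjusted p was under 0.05 and its log2 fold change at least 1 in size. DESeq2 1.42.0 and other settings served as alternatives. For edgeR the SE was derived as the size of the log2 fold change over the square root of the test's F statistic. It is only a rough guide to the error of the estimate. As a check of the code, the fits were also run on simulated counts. These had no pair effect, so they say nothing about how well the fits suit the paired libraries. A planned permutation test of the WOX3A share could not be run, because no whole-cell library had a WOX3A count.

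The labels give the replicate numbers. Deviations of each gene from its group mean correlated at 0.335, 0.639 and 0.626 between the upper and lower libraries numbered 1, 2 and 3. Between unlike numbers the correlation was 0.0619 or less. The deviations of a gene cancel out within a group, so positive values for equal numbers push those for unlike numbers down. The low values between unlike numbers are thus no separate evidence of pairing. On the correlations of equal numbers, these libraries were treated as pairs in the blocked fits and within-pair ratios, while the main fits ignored the pairing. Pairing of the nuclei was not checked, so blocked nuclei fits rest on the replicate numbers alone.

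Named genes were the 9 loci and the 2 loci most like FON1; the listed partner and carpel loci are given as counts because no table names them. Loci were defined by identifier, but the set and the lists were chosen with earlier results of these data known. Pooled ratios and group floors use total counts, single-library values TMM-scaled sizes; their intervals cover counting error only. CPM levels were not ranked between genes, since no gene lengths of the build were used; shares of the summed counts of a pair of genes are compared between libraries only.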

Additional observations from a re-analysis of the deposited data

How the results depend on the processing

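Between the parts, edgeR without the block called 0 of the 2 loci tested. It called 0 of the 2 or 3 tested in each fit that left out 1 library. Those fits called from 0% (without lower replicate 1) to 3.15% (without lower replicate 3) of all genes, so a count of 0 says little about these loci. WOX3B alone was called with the replicate block (1 locus, with 8.14% of all genes called) and with DESeq2 (1 locus, 5.47%). The same held in the blocked fit without pair 1 (1 locus, 11.7%). These fits used the low-count filter, which kept WOX3B only through its upper libraries. Without that filter edgeR called 0 loci, with 0.849% of all genes called. In the blocked fit without pair 3, 2 loci were called, WOX3B and FON1, with 9.76% of all genes called. The blocked fits without a pair were added after the data were seen.

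For nuclei, 2 loci were called as reported. The number was 1 with the replicate block (29.8% of all genes called), with library size as the only scaling (23.4%), when tested against a 2-fold change (9.49%), and against the upper (19.9%) or the lower part alone (15.5%), and it ran from 0 to 2 with 1 library left out. WOX3B lost its call with the block (edgeR adjusted p = 0.0909), whose pairing of nuclei was not checked. Against the upper part alone its log2 fold change was near 0, at -0.0052 (SE 1.07). Without a filter on low counts 3 loci were called, the third being the chromosome 11 copy of WOX3A. The cause of these changes was not tested.

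Over all genes, the share called ran from 0% to 11.7% between the parts and from 7.32% to 30.3% in nuclei, against 0.814% and 22.9% as reported. Scaling by library size alone moved the all-gene median on the log2 scale from -0.02 to -0.34 between the parts and from -0.03 to -0.17 in nuclei, and FON1 stood at -2.13 and 2.33. The WOX3A share could not be computed in whole cells, so its planned comparison of groups was not run; in nuclei it was from 66.7% to 80.0% with a library left out. Depth limits the 7 loci with few counts.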
